A study of Mus musculus with 18 samples.

Results

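The 10 genes described here encode heat shock proteins and their partners, and they were taken from the deposited table of 24028 genes by symbol. They are Hsf1, Hspa1a, Hspa1b, Hspa8, Hsph1, Hsp90aa1, Hspb1, Cryab, Dnajb1 and Bag3. All 10 passed the filter on low counts and belong to the 13602 genes tested. The study measured polyadenylated RNA in C2C12 cells, a mouse myoblast line, that carried a doxycycline-inducible transgene. There were 6 groups of 3 separately grown cultures, 18 libraries in all: cells with codon-altered mouse Dux given 2 µg/ml doxycycline and the same cells without it, cells with codon-altered human DUX4 given doxycycline and the same cells without it, and cells with firefly luciferase given doxycycline and the same cells without it. Every culture was harvested at 36 h and every group was grown in puromycin, so the luciferase cells share both the selection and, in the induced group, the drug. Each transgene was studied in a clonal line, so the transgene and the clone cannot be told apart in a comparison of lines. DUX4 is a double homeobox transcription factor whose expression in skeletal muscle underlies facioscapulohumeral muscular dystrophy, and Dux is its mouse relative, active in the early embryo. The comparisons ask what each factor did to these genes in clones of the same myoblast line, with the luciferase line as the control for the drug.

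Cells meet misfolded protein by releasing heat shock factor 1, encoded by Hsf1, which binds arrays of short inverted repeats called heat shock elements in front of chaperone genes. HSP70 proteins hold and refold unfolded chains in cycles of ATP hydrolysis, HSP40 proteins such as the product of Dnajb1 deliver the chains to them, and nucleotide exchange factors such as the products of Hsph1 and Bag3 let the chains go. HSP90 matures signalling proteins, and small heat shock proteins hold unfolded chains without ATP, in muscle around the contractile apparatus.

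The sequences in front of these genes are shown because the genes share a textbook regulator but not, in these libraries, a common response. RefSeq promoter windows on GRCm38.p6 were matched by symbol for 6 of the 10 genes, and the 250 bases before the start site were searched for GAANNTTC and TTCNNGAA, the arrangements of facing units in a heat shock element. Both motifs read the same on either strand, and they can overlap where units follow each other. Capitals mark the matches, and all sequences run 5′ to 3′ along the strand of the gene. The windows are chr17:34972157-34972406 (minus strand) for Hspa1a, chr17:34959239-34959488 (minus strand) for Hspa1b, chr5:135887669-135887918 (plus strand) for Hspb1 and chr7:128523333-128523582 (plus strand) for Bag3. For Hsph1, 30 bases are shown at chr5:149636351-149636380 (minus strand).
Hspa1a: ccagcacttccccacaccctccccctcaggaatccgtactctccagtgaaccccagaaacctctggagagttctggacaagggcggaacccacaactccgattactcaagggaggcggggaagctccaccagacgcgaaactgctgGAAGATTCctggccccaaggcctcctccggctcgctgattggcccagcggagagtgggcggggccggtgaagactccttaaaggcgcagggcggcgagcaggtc
Hspa1b: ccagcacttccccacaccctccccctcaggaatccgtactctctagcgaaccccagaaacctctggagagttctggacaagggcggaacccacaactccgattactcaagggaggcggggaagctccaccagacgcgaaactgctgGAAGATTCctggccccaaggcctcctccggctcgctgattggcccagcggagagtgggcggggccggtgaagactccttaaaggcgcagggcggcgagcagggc
Hspb1: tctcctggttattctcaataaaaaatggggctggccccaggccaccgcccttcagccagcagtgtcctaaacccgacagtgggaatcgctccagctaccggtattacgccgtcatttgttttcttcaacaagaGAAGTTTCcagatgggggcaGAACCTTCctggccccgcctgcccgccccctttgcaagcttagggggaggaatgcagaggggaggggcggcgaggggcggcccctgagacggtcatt
Bag3: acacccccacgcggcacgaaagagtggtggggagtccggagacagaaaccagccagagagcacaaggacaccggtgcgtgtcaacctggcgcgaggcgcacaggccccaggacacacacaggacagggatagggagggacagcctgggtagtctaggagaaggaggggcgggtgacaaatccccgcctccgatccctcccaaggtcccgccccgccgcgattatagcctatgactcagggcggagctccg
Hsph1: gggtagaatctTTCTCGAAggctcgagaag
The windows of Hspa1a and Hspa1b differed in 3 of 250 bases, and both held GAANNTTC from position −104 to −97 relative to the start site. The Hspb1 window held it at −117 to −110 and again at −97 to −90. TTCNNGAA was found for Hsph1 at −33 to −26 from one RefSeq start and −54 to −47 from its other start, and GENCODE begins the gene further upstream, so the match lies inside the annotated gene. Neither motif was in the Bag3 window or in the Dnajb1 windows. The search took only exact matches within 250 bases, so it cannot show that a gene lacks heat shock elements. The Dnajb1 window at chr8:83608298-83608547 (plus strand) lies inside the gene, which GENCODE begins at 83608193. Of all 32851 windows of this length, 12.8% held at least 1 of the 2 motifs, and of the windows of genes tested here 10.1% did. Dnajb1 is named here without its sequence, and Hsf1, Hspa8, Hsp90aa1 and Cryab had no window in this table.

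The libraries held 11010586 to 17179642 counts, and 5017 genes had no count in any library. Levels are given as CPM, counts scaled to a common library total by trimmed mean of M-values (TMM) and expressed per 1000000 counts. The first induced mouse Dux library stood apart: its counts differed from the other 2 of its group with a chi-square per degree of freedom of 34 and 36.4, against 2.14 between those 2, and the values and counts of the mouse Dux response that change most without it are given both ways. In the uninduced mouse Dux group the same measure was 5.16 and 5.25 for library 1, and in every other group it lay between 1.34 and 2.79. The mouse Dux gene itself had 24, 24 and 23 counts in the induced mouse Dux libraries, against 1, 2 and 0 in the uninduced ones and 0 to 3 in all other libraries; how far reads of the codon-altered transgene are counted there was not tested. The 8 myoblast markers summed to 1753 to 1913 CPM in induced and 1811 to 1837 CPM in uninduced mouse Dux cells, to 1002 to 1038 and 875 to 902 CPM in induced and uninduced human DUX4 cells, and to 2545 to 2693 and 3302 to 3349 CPM in induced and uninduced luciferase cells. These sums hide unequal changes: in human DUX4 cells Chrna1 averaged 840 ± 12.3 CPM when induced and 363 ± 5.37 CPM when uninduced, while Des averaged 76.3 ± 4.95 and 212 ± 6.62 CPM and Myod1 3.67 ± 0.907 and 26.2 ± 0.403 CPM (SD, n = 3 each). In mouse Dux cells Cdh15 averaged 54.5 ± 4.36 CPM when induced and 190 ± 8.4 CPM when uninduced, and Vcam1 201 ± 4.35 and 91.2 ± 3.25 CPM. Pax7 was near 0 in human DUX4 cells, at no count when induced and 0.0214 CPM when uninduced. It was also near 0 in luciferase cells (0.0621 and 0.161 CPM), against 9.3 CPM in induced and 15.1 CPM in uninduced mouse Dux cells. Myf5 averaged 0.0438 CPM in induced and 0.258 CPM in uninduced mouse Dux cells, 8.83 and 6.97 CPM in human DUX4 cells, and 81.7 and 105 CPM in luciferase cells. The 10 markers of other cell types summed to between 7.99 and 40.7 CPM in any library, with Cd68 at 20.9 ± 1.64 CPM in induced and 1.74 ± 0.0532 CPM in uninduced human DUX4 cells. Krt14 went the other way in that line, at 0.897 ± 0.147 CPM when induced and 15.8 ± 0.679 CPM when uninduced. The highest sums were in luciferase cells, where Cdh5 averaged 23.4 ± 1.14 CPM when induced and 25.4 ± 1.8 CPM when uninduced, against 0.145 CPM or less in the other groups. The part of these marker differences in the results was not tested, and in bulk RNA a change in the number of expressing cells and a change in RNA per cell cannot be told apart.

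Induction of mouse Dux raised 8 of the 10 genes and lowered Hsf1, while Hspb1 was not called. With human DUX4 induced, Hsph1, Dnajb1, Bag3 and Hspb1 were higher and Hspa1a, Hspa1b, Hsp90aa1, Cryab and Hsf1 lower, with Hspa8 not called. The falls of Hsp90aa1 (−0.11 on the log2 scale) and Cryab (−0.29) were smaller than those in luciferase cells (−0.51 and −0.69). In luciferase cells none rose and 8 fell, with Hsf1 and Bag3 not called; none of the 10 was higher there at an unadjusted p under 0.05 or in DESeq2. Without the first induced mouse Dux library, 8 were again higher and Hsf1 lower with mouse Dux. Calls are at an adjusted p under 0.05 in edgeR's quasi-likelihood test with Benjamini-Hochberg adjustment over all genes tested. The same rule called 68.9% of all genes tested in the mouse Dux response (34.1% higher, 34.8% lower), 67.6% in the human DUX4 response (34.4% higher, 33.1% lower) and 31.1% in the luciferase response (14.7% higher, 16.4% lower). With either factor on, most genes were thus called, and the count of 9 among the 10 is read against that. The single fit pooled the spread of all 6 groups, and induced mouse Dux libraries spread the most. Fitted with only the groups compared, 7759 genes were called with mouse Dux (9371 when pooled), 9696 with human DUX4 (9191) and 6148 with luciferase (4228). The same 9 genes were called with mouse Dux, but the SE of all 10 was larger, at 0.105 for Hspa1a and 0.106 for Cryab. For those 9 genes the adjusted p given below, from the pooled fit, is smaller than in that fit. The median log2 fold change of the 10 genes was 1.03 with mouse Dux, −0.06 with human DUX4 and −0.42 with luciferase, against −0.0053, 0 and 0 over all genes tested. Scaling by library size alone moved the median of all genes by −0.25 in the mouse Dux response and left 3199 genes higher and 6922 lower, against 4643 higher and 4728 lower with TMM. The 10 genes together took 0.859% ± 0.0294 of all counts in induced and 0.39% ± 0.00614 in uninduced mouse Dux cells (SD, n = 3 each). Their share was 0.407% ± 0.00435 in induced and 0.393% ± 0.00298 in uninduced human DUX4 cells, and 0.316% ± 0.00404 in induced and 0.399% ± 0.0055 in uninduced luciferase cells.

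**Figure D1:**
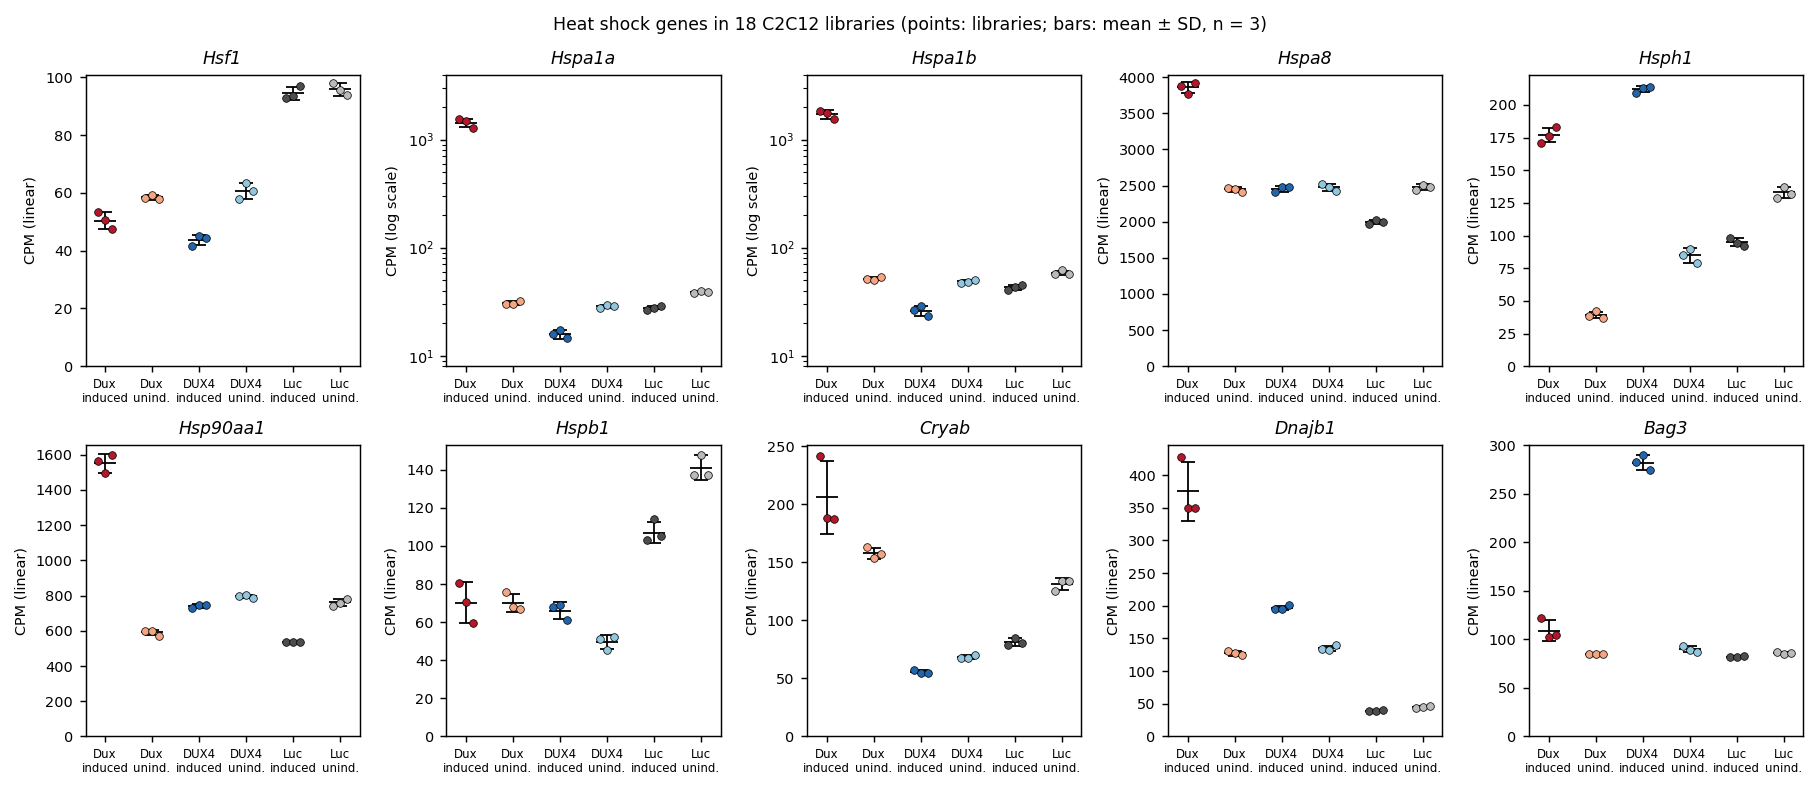
CPM of each of the 10 genes (y axis, linear except for Hspa1a and Hspa1b, which have a log axis) in 6 groups of 3 libraries (x axis), with points for libraries and bars for the mean ± SD. Hspa1a and Hspa1b range from 1279 to 1838 CPM in the 3 induced mouse Dux libraries and from 14.5 to 61.5 CPM in the other 15.

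Hsf1, the heat shock factor gene (chromosome 15, 76477422 to 76501913, plus strand), had 53.4, 50.5 and 47.3 CPM in induced mouse Dux cells, against 58.2, 59.2 and 57.9 CPM in uninduced ones. In the human DUX4 line it had 41.6, 44.9 and 44.3 CPM when induced, against 57.7, 63.5 and 60.6 CPM when uninduced. All induced libraries of both lines lay below the uninduced libraries of the same line. The log2 fold change was −0.21 (SE 0.0526, edgeR adjusted p = 0.00143) with mouse Dux and −0.47 (SE 0.0528, adjusted p = 1.45e-07) with human DUX4. Luciferase cells averaged 94.4 ± 2.24 CPM when induced and 95.8 ± 2.14 CPM when uninduced (SD, n = 3 each), and their ranges overlapped. The transcript of the factor was thus lowest where human DUX4 was on. The difference between the mouse Dux and luciferase responses did not hold in every setting, as given below. The activity of the factor was not measured, and its part in the other changes was not tested.

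Hspa1a and Hspa1b encode the stress-inducible HSP70 and lie 9951 bases apart on chromosome 17, both on the minus strand (34969190 to 34972156 and 34956436 to 34959238). Gm20481 overlaps Hspa1a by 2225 bases on the opposite strand, and the libraries do not mark strand. Hspa1a had 1538, 1476 and 1279 CPM in induced mouse Dux cells, against 30.4, 29.8 and 31.9 CPM in uninduced ones. Hspa1b had 1838, 1773 and 1541 CPM in induced mouse Dux cells, against 51.6, 50.1 and 53.6 CPM in uninduced ones. No other group came near these levels, and library 1 was the highest of the 3 for both genes. Hspa1a rose 46.6-fold (log2 5.54, SE 0.0747, edgeR adjusted p = 2.09e-21) and Hspa1b 33.2-fold (log2 5.05, SE 0.0797, adjusted p = 1.77e-20). Without the first induced library the log2 values were 5.47 and 4.99.

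With human DUX4 the HSP70 genes moved the other way. Hspa1a had 15.8, 17.3 and 14.5 CPM in induced human DUX4 cells, against 27.8, 29.2 and 29 CPM in uninduced ones. Hspa1b had 26.3, 28.9 and 23.4 CPM in induced human DUX4 cells, against 47.4, 48.4 and 50.4 CPM in uninduced ones. The groups did not overlap for either gene, and the induced human DUX4 cells were the lowest of the 6 groups. The log2 fold change was −0.85 (SE 0.0777, edgeR adjusted p = 8.01e-09) for Hspa1a and −0.89 (SE 0.0782, adjusted p = 4.51e-09) for Hspa1b. In luciferase cells Hspa1a averaged 27.8 ± 0.95 CPM when induced and 38.9 ± 0.916 CPM when uninduced, and Hspa1b 42.8 ± 2.33 CPM when induced and 58.7 ± 2.47 CPM when uninduced (SD, n = 3 each). These were falls of 0.49 (adjusted p = 2.26e-05) and 0.46 (adjusted p = 7.96e-05) on the log2 scale in edgeR's test.

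The coding sequences of the HSP70 copies are 99.4% identical, with 11 aligned columns that differ over 1923 and 1926 bases. Of the 50-base windows of the Hspa1a transcript 58.8% were also in Hspa1b, and 62.3% of those of Hspa1b were in Hspa1a, so the split between the copies is uncertain, and how the authors treated shared reads was not given in the sources used here. The sum of both copies does not depend on that split, though its level depends on whether shared reads were counted. It was 3377, 3249 and 2819 CPM in induced mouse Dux cells, against 82, 79.9 and 85.5 CPM in uninduced ones. The sum averaged 42.1 ± 4.15 CPM in induced and 77.4 ± 2.16 CPM in uninduced human DUX4 cells, and 70.5 ± 3.28 CPM in induced and 97.6 ± 3.33 CPM in uninduced luciferase cells (SD, n = 3 each). Counting the copies as 1 gene left every other member with its call in the 3 responses.

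Within the sum, Hspa1a took 45.6%, 45.4% and 45.4% in induced mouse Dux cells, against 37.1%, 37.3% and 37.3% in uninduced ones. The 95% Wilson intervals, which cover counting error only, ran from 44.9% to 46% over the induced libraries and from 34.1% to 40.2% over the uninduced ones. The difference was 8.23 percentage points, and an exact two-sided permutation test gave p = 0.1, the smallest that 3 against 3 libraries allow. Human DUX4 cells had 37.7% ± 0.4 when induced and 37% ± 0.525 when uninduced (exact permutation p = 0.3, n = 3 each). Luciferase cells had 39.4% ± 0.502 when induced and 39.9% ± 0.534 when uninduced (exact permutation p = 0.2, n = 3 each). The difference was widest in the line where both genes were strongly raised, and which copy the reads came from is subject to the uncertainty above.

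**Figure D2:**
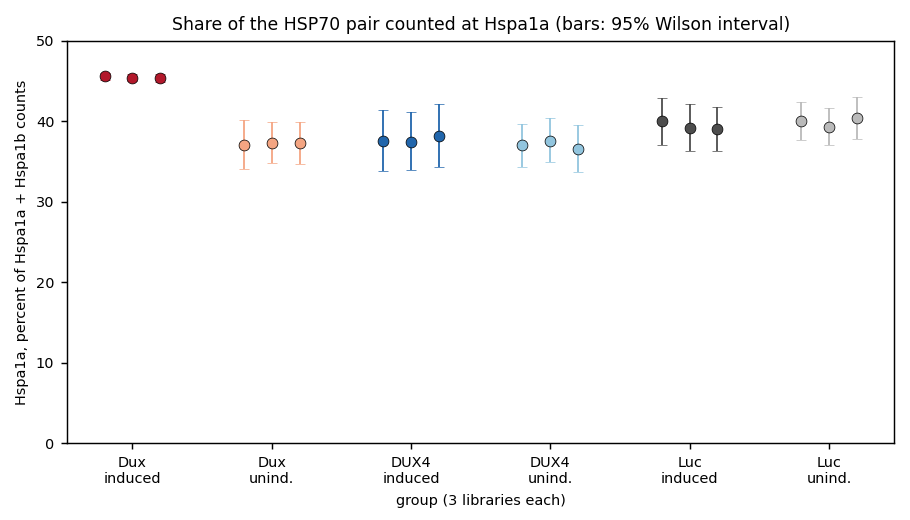
Hspa1a counts as a percent of Hspa1a plus Hspa1b counts (y axis, from 0) in each of the 18 libraries by group (x axis), with 95% Wilson intervals as bars. The 3 induced mouse Dux libraries sit at 45.4% to 45.6%, and the other 15 lie between 36.6% and 40.4%.

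Hspa8 encodes the constitutive HSP70 (chromosome 9, 40800984 to 40810087, plus strand), and small nucleolar RNA genes of the Snord14 family lie inside it. It had 3884, 3774 and 3925 CPM in induced mouse Dux cells, against 2470, 2452 and 2415 CPM in uninduced ones. All 3 induced libraries exceeded every other library of the study. The rise was 1.58-fold (log2 0.66, SE 0.0372, edgeR adjusted p = 7.23e-12). Human DUX4 cells averaged 2452 ± 39.1 CPM when induced and 2477 ± 50.3 CPM when uninduced (SD, n = 3 each), and these ranges overlapped (log2 −0.01, SE 0.037, edgeR adjusted p = 0.75). Luciferase cells averaged 1999 ± 28.9 CPM when induced and 2476 ± 40.4 CPM when uninduced, a fall of 0.31 on the log2 scale (SE 0.0371, edgeR adjusted p = 2.31e-06). Set against Hspa8 per kilobase of transcript, the inducible HSP70 copies together reached 72.4%, 71.7% and 59.8% of its level in induced mouse Dux cells, against 2.78%, 2.73% and 2.96% in uninduced ones. In the other 4 groups that figure averaged between 1.44% and 3.29%. By these counts the constitutive gene gave nearly all of the message of these HSP70 genes in each group but the induced mouse Dux cells. Reads shared by the inducible copies may have been dropped or counted for both, so these percentages could be too low or too high.

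Hsph1 encodes HSP110, a relative of HSP70 that acts as its nucleotide exchange factor (chromosome 5, 149614287 to 149636376, minus strand). Hsph1 had 171, 176 and 183 CPM in induced mouse Dux cells, against 38.4, 42 and 37.1 CPM in uninduced ones. In the human DUX4 line it had 209, 213 and 214 CPM when induced, against 85.4, 89.9 and 79.1 CPM when uninduced. The induced human DUX4 libraries were the highest of all, and the uninduced mouse Dux libraries the lowest. Hsph1 rose 4.51-fold with mouse Dux (log2 2.17, SE 0.0568, edgeR adjusted p = 5.42e-17) and 2.5-fold with human DUX4 (log2 1.32, SE 0.0534, adjusted p = 3.34e-14). Luciferase cells had 97.8, 94.7 and 91.8 CPM when induced, against 129, 137 and 132 CPM when uninduced, a fall of 0.48 on the log2 scale (SE 0.053, edgeR adjusted p = 6.57e-07). The rise was larger with mouse Dux than with human DUX4, while the level reached was not: the mouse Dux clone started from 39.2 ± 2.52 CPM and the human DUX4 clone from 84.8 ± 5.44 CPM (SD, n = 3 each).

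Hsp90aa1, the stress-inducible HSP90 gene (chromosome 12, 110690605 to 110702728, minus strand), had 1562, 1494 and 1596 CPM in induced mouse Dux cells, against 600, 600 and 572 CPM in uninduced ones. It rose 2.63-fold (log2 1.39, SE 0.0407, edgeR adjusted p = 3.01e-16). The highest library of any other group had 806 CPM. In human DUX4 cells it had 728, 746 and 745 CPM when induced, against 796, 806 and 786 CPM when uninduced. That small difference passed the threshold (log2 −0.11, SE 0.04, edgeR adjusted p = 0.0255), but not with median-of-ratios scaling (adjusted p = 0.0602), nor without induced library 1 (0.0778), uninduced library 1 (0.0542) or uninduced library 2 (0.0766). Luciferase cells averaged 536 ± 0.928 CPM when induced and 762 ± 21 CPM when uninduced (SD, n = 3 each), a fall of 0.51 on the log2 scale (SE 0.0401, edgeR adjusted p = 7.88e-09).

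Hspb1 and Cryab are the small heat shock protein genes of the set. Hspb1, which encodes HSP27 (chromosome 5, 135887919 to 135889563, plus strand), had 80.6, 70.8 and 59.3 CPM in induced mouse Dux cells, against 75.7, 68.2 and 67 CPM in uninduced ones. The groups overlapped and the log2 fold change was 0.0032 (SE 0.0879, edgeR adjusted p = 0.981). Without the first induced library it was −0.12 and was not called (edgeR adjusted p = 0.114). The Hspb1 promoter window is the one with 2 matches among those shown above, and any relation of motif to response was not tested. By library size alone the log2 fold change was −0.24 (edgeR adjusted p = 0.0194), a shift of the size seen in the median of all genes. Hspb1 had 68.2, 68.8 and 61 CPM in induced human DUX4 cells, against 51.4, 45.5 and 52 CPM in uninduced ones, a rise of 1.33-fold (log2 0.41, SE 0.0897, edgeR adjusted p = 0.000441). Luciferase cells averaged 107 ± 5.61 CPM when induced and 141 ± 6.59 CPM when uninduced (SD, n = 3 each), a fall of 0.39 on the log2 scale (SE 0.0832, edgeR adjusted p = 0.0012).

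Cryab encodes alphaB-crystallin, a small heat shock protein abundant in muscle (chromosome 9, 50751325 to 50756636, plus strand). Hspb2 overlaps it by 1030 bases on the opposite strand, and the library kit does not mark strand, so reads there cannot be told apart. Cryab had 242, 188 and 187 CPM in induced mouse Dux cells, against 163, 154 and 157 CPM in uninduced ones. The induced libraries were all higher, with library 1 far above the other 2. The log2 fold change was 0.38 (SE 0.0733, edgeR adjusted p = 0.000127), it was 0.24 without induced library 1 (adjusted p = 2.71e-06), and by library size alone it was 0.14 and not called (adjusted p = 0.0947). Human DUX4 cells had 57.4, 54.8 and 55 CPM when induced, against 67.2, 67.3 and 70 CPM when uninduced (log2 −0.29, SE 0.0791, edgeR adjusted p = 0.00306). Luciferase cells had 78.4, 84.7 and 80.3 CPM when induced, against 125, 134 and 134 CPM when uninduced, and this fall of 0.69 on the log2 scale (SE 0.0754, edgeR adjusted p = 6.94e-07) was the largest of the 10 genes in that line.

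Dnajb1 encodes HSP40, the partner that loads HSP70 (chromosome 8, 83608193 to 83612653, plus strand). It had 427, 349 and 350 CPM in induced mouse Dux cells, against 131, 127 and 124 CPM in uninduced ones. In the human DUX4 line it had 195, 195 and 201 CPM when induced, against 134, 132 and 140 CPM when uninduced. Neither line's groups overlapped, and library 1 was again the highest of the induced mouse Dux libraries. The rise was 2.96-fold with mouse Dux (log2 1.56, SE 0.0627, edgeR adjusted p = 3.73e-14; 1.45 without that library) and 1.46-fold with human DUX4 (log2 0.54, SE 0.0621, adjusted p = 2.05e-07). Luciferase cells averaged 39.4 ± 1.1 CPM when induced and 45.3 ± 1.2 CPM when uninduced (SD, n = 3 each). That difference of −0.20 on the log2 scale (edgeR adjusted p = 0.0312) was lost, with adjusted p between 0.0504 and 0.109, on leaving out any induced library or uninduced library 2 or 3.

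Bag3, a cochaperone that couples HSP70 to small heat shock proteins and to autophagy (chromosome 7, 128523616 to 128546981, plus strand), showed the reverse order of the factors. Bag3 had 122, 102 and 104 CPM in induced mouse Dux cells, against 84.8, 84.4 and 84.4 CPM in uninduced ones. In the human DUX4 line it had 283, 290 and 274 CPM when induced, against 93.3, 88.7 and 87.1 CPM when uninduced. The induced human DUX4 libraries stood far above all others, and the induced mouse Dux libraries came next. The rise was 1.29-fold with mouse Dux (log2 0.37, SE 0.0557, edgeR adjusted p = 8.14e-06; 0.27 without induced library 1) and 3.14-fold with human DUX4 (log2 1.65, SE 0.0552, adjusted p = 1.96e-15). Luciferase cells averaged 82.3 ± 0.94 CPM when induced and 85.7 ± 1.15 CPM when uninduced (SD, n = 3 each; log2 −0.06, SE 0.0557, edgeR adjusted p = 0.477). A transcript of unknown status, 2610306O10Rik, overlaps Bag3 by 612 bases on the same strand.

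**Figure D3:**
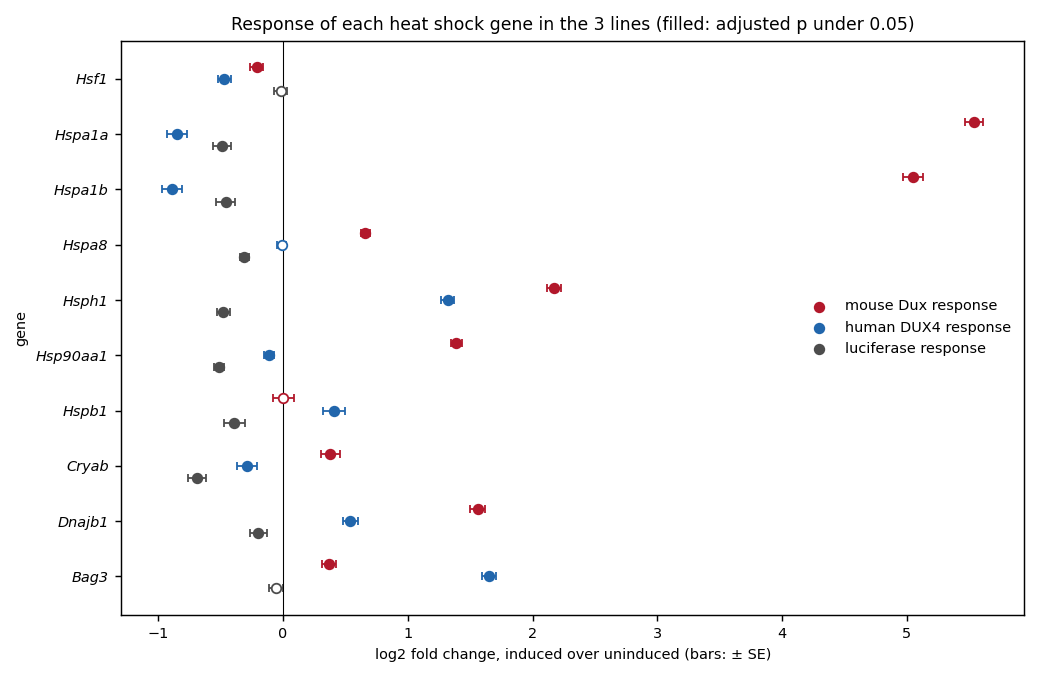
Log2 fold change of induced over uninduced cells (x axis, ± SE from edgeR) for each gene (y axis) in the 3 lines, with filled points where the adjusted p is under 0.05. Hspa1a (5.54) and Hspa1b (5.05) lie far right for mouse Dux alone, Bag3 (1.65) leads for human DUX4, and no luciferase point lies to the right of 0.

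Per kilobase of transcript, the order of the genes changed in the mouse Dux line. In induced cells Hspa8 came first at 1613 CPM per kb, followed by Hspa1b (613), Hspa1a (482), Hsp90aa1 (473), Cryab (184), Dnajb1 (125), Hspb1 (75.5), Hsph1 (46.5), Bag3 (42.6) and Hsf1 (24). In uninduced cells Hspa8 also came first at 1022 CPM per kb, and Hspa1b (18.5), Hspa1a (10.3) and Hsph1 (10.3) came last, behind Hsf1 (27.8). In induced human DUX4 cells the inducible HSP70 genes were still last, at 9.35 CPM per kb for Hspa1b and 5.34 for Hspa1a, while Bag3 reached 110 and Hsph1 55.8. Uninduced human DUX4 cells had 35 CPM per kb of Bag3 and 22.3 of Hsph1. The levels of Hspa1a and Hspa1b, and so their places in this order, depend on how their shared reads were counted, which was not given.

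Interaction contrasts tested whether the responses differed between lines. Between the mouse Dux and human DUX4 responses 8 of the 10 genes were higher and 2 lower, where 65.2% of all genes tested were called (32.9% higher, 32.3% lower). The difference was largest for Hspa1a (6.40 on the log2 scale, SE 0.104, edgeR adjusted p = 3.47e-19), and the 2 genes with a larger response to human DUX4 were Bag3 (−1.28, SE 0.0779, adjusted p = 2.82e-11) and Hspb1 (−0.41, SE 0.126, adjusted p = 0.0077). Hsp90aa1 differed by 1.5 (SE 0.0568), Dnajb1 by 1.02 (SE 0.0875) and Hsph1 by 0.85 (SE 0.0769). Against the luciferase response, the mouse Dux response was higher for 9 genes and lower for Hsf1, where 60% of all genes tested were called (30.4% higher, 29.5% lower), and the human DUX4 response was higher for 7 and lower for Hspa1a, Hspa1b and Hsf1, where 55% were called (28.3% higher, 26.7% lower). For Hspa1a the human DUX4 response minus the luciferase response was −0.37 on the log2 scale (SE 0.105, edgeR adjusted p = 0.00608), and for Hspa1b it was −0.44 (SE 0.107, adjusted p = 0.00187), so the fall of both copies with human DUX4 exceeded that in the drug-treated luciferase cells. Hspa8 was at 0.29 (SE 0.0524, adjusted p = 8.87e-05) in the same contrast, with a fall in luciferase cells and no call in human DUX4 cells. Hsp90aa1 (0.40, SE 0.0566, edgeR adjusted p = 5.8e-06) and Cryab (0.40, SE 0.109, adjusted p = 0.00455) were also higher in that contrast. Both fell in human DUX4 cells and fell more in luciferase cells. Hsf1 in the mouse Dux line differed from the luciferase line by −0.19 (SE 0.0718, edgeR adjusted p = 0.0285), which was lost with median-of-ratios scaling (0.0605), in DESeq2 (0.0728) and on leaving out any of 4 libraries, induced mouse Dux library 3, uninduced mouse Dux library 2 or library 3 of either luciferase group (0.0596 to 0.0673). These 3 contrasts share libraries, so their values are not independent of each other.

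**Figure D4:**
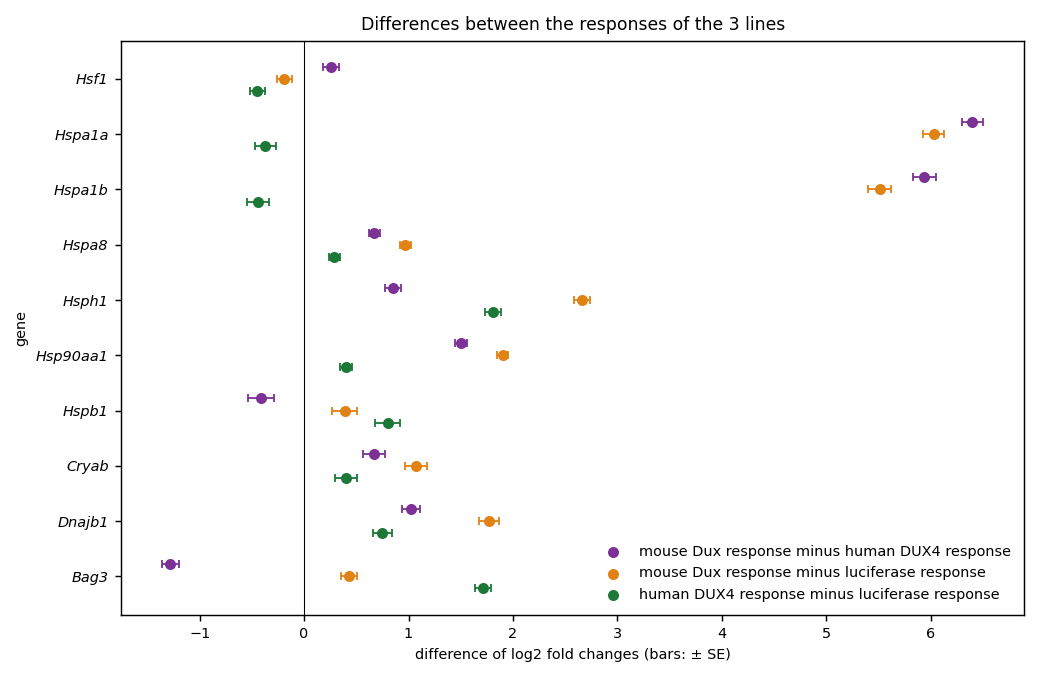
Difference between the log2 fold changes of pairs of lines (x axis, ± SE from edgeR) for each of the 10 genes (y axis). Hspa1a and Hspa1b lie between 5.51 and 6.40 in both contrasts with the mouse Dux response, and Bag3 lies at −1.28 for mouse Dux minus human DUX4 and at 1.71 for human DUX4 minus luciferase.

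The clones also differed before induction. Uninduced mouse Dux cells were higher than uninduced luciferase cells for Dnajb1 and Cryab and lower for 6 genes, where 65.3% of all genes tested were called (32.2% higher, 33.1% lower). Uninduced human DUX4 cells were higher for Dnajb1 and lower for 6 genes, where 73% were called (36% higher, 37% lower). Dnajb1 had 131, 127 and 124 CPM in uninduced mouse Dux cells and 134, 132 and 140 CPM in uninduced human DUX4 cells, against 44.1, 45.4 and 46.5 CPM in uninduced luciferase cells. Both lines stood above luciferase without overlap (log2 1.49, SE 0.0662, and 1.58, SE 0.0662). The lower genes included Hsph1, at −1.76 in the mouse Dux clone and −0.65 in the human DUX4 clone, Hspb1, at −1.0 and −1.5, and Hsf1, at −0.71 and −0.66. Hspa1b was lower in the mouse Dux clone by a margin that did not hold in every setting (−0.18, edgeR adjusted p = 0.0379; −0.09 and adjusted p = 0.27 by library size alone; adjusted p 0.0536 to 0.138 without uninduced luciferase library 2 or 3 or uninduced mouse Dux library 1 or 2). Between the uninduced mouse Dux and human DUX4 clones 4 of the 10 genes were called, against 66.4% of all genes tested (33.1% higher, 33.3% lower). Cryab (1.21) and Hspb1 (0.50) were higher in the mouse Dux clone, and Hsph1 (−1.11) and Hsp90aa1 (−0.43) were lower. Hspa1a averaged 30.7 ± 1.05 CPM in the uninduced mouse Dux clone and 28.7 ± 0.771 CPM in the uninduced human DUX4 clone (SD, n = 3 each), and was not called between them (log2 0.10, SE 0.0726, edgeR adjusted p = 0.241).

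The wider chaperone network was followed in 10 lists of 92 further genes, of which 87 were tested. With mouse Dux 45 rose and 21 fell (42 and 26 without the first induced library), with human DUX4 29 rose and 39 fell, and with luciferase 8 rose and 39 fell. These counts are read against the shares of all genes given above.

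Among 8 HSP70 and HSP110 relatives, 5 rose and 3 fell with mouse Dux, 2 rose and 4 fell with human DUX4, and 5 fell with luciferase (median log2 0.36, −0.20 and −0.22). Hspa1l, the testis HSP70 gene whose start lies 546 bases from that of Hspa1a, averaged 99.1 ± 6.76 CPM in induced and 3.89 ± 0.574 CPM in uninduced mouse Dux cells (log2 4.65, SE 0.126). It had 2.47 ± 0.609 CPM in induced and 4.88 ± 0.605 CPM in uninduced human DUX4 cells (log2 −0.97, SE 0.204), the same directions as its HSP70 neighbours in both lines. Hspa2, a further germ cell HSP70, averaged 93.6 ± 4.22 CPM in induced and 13 ± 1.21 CPM in uninduced mouse Dux cells (log2 2.85, SE 0.0805). Human DUX4 raised other relatives: Hspa4l, an HSP110, averaged 430 ± 7.2 CPM in induced and 105 ± 2.2 CPM in uninduced cells (log2 2.03, SE 0.0812), and Hspa12b averaged 32.7 ± 2.83 and 6.13 ± 0.54 CPM (log2 2.41, SE 0.112). Hspa12b fell slightly with mouse Dux (log2 −0.60, SE 0.203, edgeR adjusted p = 0.0129) and by as much with luciferase (−0.61, SE 0.22, adjusted p = 0.0399).

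Of 3 other HSP90 genes 0 were called with mouse Dux by edgeR, 0 at an unadjusted p under 0.05 and 0 by DESeq2. Hsp90b1 (−0.71, SE 0.0374) and Trap1 (−0.26, SE 0.0422) fell with human DUX4, and 2 fell with luciferase (median log2 0.08, −0.26 and −0.19). Hsp90b1 was among those 2 (−0.24, SE 0.0372). The mouse Dux response minus the luciferase response was called higher for all 3, against 30.4% of all genes tested. Without the first induced mouse Dux library 1 of the 3 was called higher with mouse Dux. Among 12 HSP90 cochaperones 7 rose and 2 fell with mouse Dux, 2 rose and 7 fell with human DUX4, and 1 rose and 6 fell with luciferase (median log2 0.28, −0.27 and −0.15). The mouse Dux counts were 6 higher and 3 lower without the first induced library. Fkbp4 rose with mouse Dux (0.71, SE 0.0474), as did Stip1, which links HSP70 to HSP90 (0.58, SE 0.0432), while Cdc37, the kinase-loading partner, fell (−0.62, SE 0.0463). With human DUX4, Fkbp5 (−1.36, SE 0.0535) and Ptges3 (−0.62, SE 0.0617) fell and Unc45a rose (0.92, SE 0.066). The 10 chaperonin genes, which build the folding chambers of cytosol and mitochondria, had 8 higher and 0 lower with mouse Dux, and 0 higher and 8 lower with both human DUX4 and luciferase (median log2 0.40, −0.38 and −0.21). Without the first induced mouse Dux library the first of these counts was 7 higher and 1 lower. With all libraries, the chaperonin counts of 0 were also 0 at an unadjusted p under 0.05 and by DESeq2. Hspd1 averaged 479 ± 29.1 CPM in induced and 290 ± 7.3 CPM in uninduced mouse Dux cells, and 289 ± 7.38 CPM in induced and 472 ± 12.1 CPM in uninduced human DUX4 cells.

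Of the HSP40 genes, 5 of 15 rose and 6 fell with mouse Dux, 9 rose and 2 fell with human DUX4, and 4 fell with luciferase (median log2 −0.11, 0.15 and −0.07); the mouse Dux counts were 5 and 7 without the first induced library. Dnaja4 rose with both factors (log2 1.23, SE 0.0766, with mouse Dux and 1.89, SE 0.0746, with human DUX4), as did Dnajc2 (1.06, SE 0.0521, and 0.67, SE 0.0493) and Dnajc21 (0.59, SE 0.0612, and 1.60, SE 0.0565), and none of these 3 was called with luciferase. Dnajb2 fell with mouse Dux (−0.93, SE 0.0554) and less with luciferase (−0.14, SE 0.051). Dnajc9 fell in all 3 lines, at −0.39 (SE 0.0682) with mouse Dux, −0.85 (SE 0.0669) with human DUX4 and −0.86 (SE 0.0779) with luciferase, and the human DUX4 response minus the luciferase response was 0.01 (edgeR adjusted p = 0.954). Among 8 nucleotide exchange and BAG cochaperones 3 rose and 2 fell with mouse Dux, 4 rose and 2 fell with human DUX4, and 1 fell with luciferase (median log2 −0.01, 0.06 and 0.01). Without the first induced mouse Dux library the mouse Dux counts turned to 2 higher and 3 lower. Bag2 averaged 267 ± 5.83 CPM in induced and 97.5 ± 4.01 CPM in uninduced human DUX4 cells (log2 1.45, SE 0.0549), was not called with mouse Dux (−0.02, SE 0.064) and fell with luciferase (−0.75, SE 0.0601). A further 8 genes were listed by symbol as small heat shock protein genes. The 5 tested had none higher and 4 lower with mouse Dux, 2 higher and 2 lower with human DUX4, and 1 higher and 4 lower with luciferase (median log2 −0.69, 0.08 and −0.39). All 5 were lower with mouse Dux without the first induced library. Hspb8, the partner of the Bag3 protein, fell with mouse Dux (−0.69, SE 0.065) and rose with human DUX4 (0.88, SE 0.0557), against a fall of 0.39 on the log2 scale with luciferase (SE 0.0523). Hspb6 fell in all 3 lines, at −0.80 (SE 0.0882) with mouse Dux, −1.66 (SE 0.0989) with human DUX4 and −0.67 (SE 0.0914) with luciferase, and its mouse Dux response minus the luciferase response was −0.13 and not called (edgeR adjusted p = 0.395). Hspb7 was called lower in all 3 lines, but averaged 0.402 CPM or less in the mouse Dux and human DUX4 groups.

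Of 5 further heat shock factor and binding protein genes 3 were tested, of which 1 rose and 1 fell with mouse Dux, 2 rose and 1 fell with human DUX4, and 1 rose with luciferase (median log2 −0.09, 0.28 and 0.09). With mouse Dux 1 rose and 2 fell when the first induced library was left out. Hsf2, which encodes a partner of heat shock factor 1, averaged 75.8 ± 4.67 CPM in induced and 25.7 ± 1.14 CPM in uninduced mouse Dux cells (log2 1.56, SE 0.0571), and 50.1 ± 1.92 CPM in induced and 33.8 ± 1.53 CPM in uninduced human DUX4 cells (log2 0.56, SE 0.0565). Hsf4 fell with both factors (−0.92, SE 0.217, and −1.02, SE 0.208) and rose with luciferase (0.34, SE 0.127), and Hsbp1, which encodes a binding protein of the factor, rose with human DUX4 (0.28, SE 0.0661). Among 15 chaperones of the endoplasmic reticulum and mitochondria 10 rose and 2 fell with mouse Dux, 2 rose and 10 fell with human DUX4, and 3 rose and 6 fell with luciferase (median log2 0.29, −0.32 and −0.08). The mouse Dux counts were 10 higher and 1 lower when the first induced library was left out. Hspa5, the HSP70 of the endoplasmic reticulum, averaged 1425 ± 82.7 CPM in induced and 691 ± 21.6 CPM in uninduced mouse Dux cells (log2 1.05, SE 0.047). Serpinh1, the collagen chaperone HSP47, averaged 296 ± 5.94 CPM in induced and 857 ± 6 CPM in uninduced human DUX4 cells (log2 −1.53, SE 0.0459). Dnajb9 rose with mouse Dux (1.04, SE 0.0747), human DUX4 (0.83, SE 0.0825) and luciferase (0.57, SE 0.0766), and its human DUX4 response minus the luciferase response was 0.26 and not called (edgeR adjusted p = 0.0565). Of 8 ubiquitin and proteotoxic stress genes 6 rose and 1 fell with either factor, and 2 rose and 3 fell with luciferase (median log2 0.30, 0.55 and 0.02). With mouse Dux 5 rose and 1 fell when the first induced library was left out. Zfand2a, an arsenite- and heat-inducible proteasome partner, rose with mouse Dux (1.17, SE 0.0509) and human DUX4 (1.01, SE 0.0478), and was not called with luciferase (0.02, SE 0.0531). Hmox1, which encodes haem oxygenase, rose with mouse Dux (0.79, SE 0.0817), human DUX4 (1.27, SE 0.0836) and luciferase (0.63, SE 0.084). Its mouse Dux response minus the luciferase response was 0.16 and not called (edgeR adjusted p = 0.248).

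**Figure D5:**
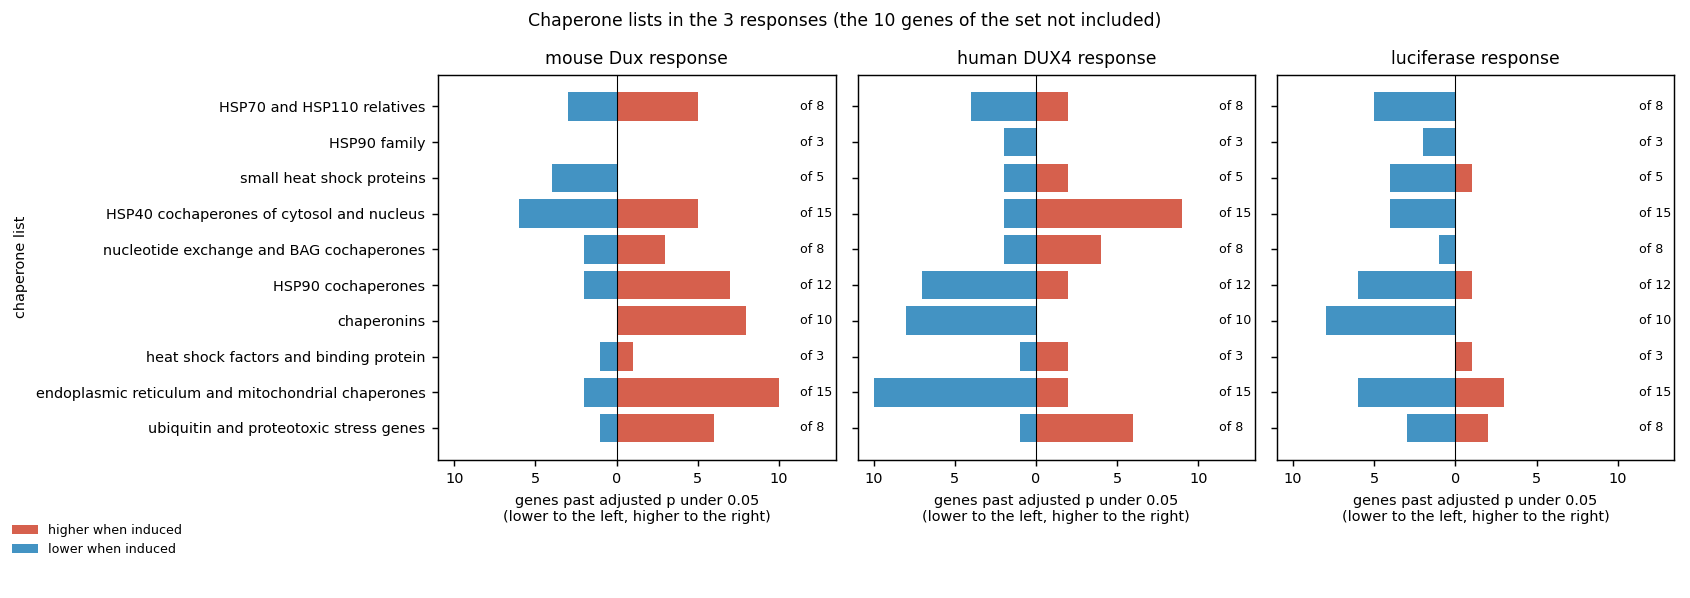
Number of genes called higher (red, right) and lower (blue, left) on induction in each of 10 chaperone lists (y axis), for the mouse Dux, human DUX4 and luciferase responses (panels), at an edgeR adjusted p under 0.05. Chaperonins had 8 higher with mouse Dux and 8 lower with human DUX4 and with luciferase, while the ubiquitin and proteotoxic stress list had 6 higher with either factor.

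The genes whose levels followed the summed HSP70 copies most closely over the 18 libraries, by Pearson correlation of log2(CPM + 1), were Hspa1l (0.994), Zfp560 (0.993), Sytl4 (0.991), Hist1h2ad (0.991) and Marveld1 (0.991). The correlation rests on 3 high libraries against 15 low ones that share a transgene, a clone and an induction, so it describes the pattern and no more. Marveld1 averaged 557 ± 28.2 CPM in induced and 92 ± 2.5 CPM in uninduced mouse Dux cells, and Zfp560 60.3 ± 4.69 and 10.7 ± 0.564 CPM (SD, n = 3 each).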

How the data were processed

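PolyA RNA of 18 C2C12 libraries was sequenced from TruSeq RNA v2 libraries, a kit that does not mark strand. The table the authors deposited holds raw read counts, 1 whole number for each gene and library. The submitters' processing notes list CASAVA, TopHat2 (2.0.12), Bowtie2 (2.2.3) and the mm10 build. What counted the reads, with which annotation, and how shared reads were treated was not given in the sources used here. Spreadsheet dates in 27 gene symbols were restored from the gene identifiers.

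Counts were fitted with edgeR 4.0.16 (R 4.3.3, limma 3.58.1): TMM scaling, the default filter on low counts by group, 1 model of 6 group means, quasi-likelihood F tests and Benjamini-Hochberg adjustment over 13602 genes, threshold 0.05. The fit was tested on data simulated with the same dispersion for every gene and group. That setting holds no outlying library like the first induced mouse Dux library, so it cannot speak for the spread in that group. The common biological coefficient of variation was 6.25%. CPM use TMM-scaled totals, and levels per kilobase use the longest protein-coding transcript of GENCODE vM21 (GRCm38). Shares were compared with exact permutation tests (scipy 1.17.1), and Wilson intervals cover counting error only. The libraries are separate cultures of a single clone per transgene.

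The 10 genes were set by symbol. In each list the text names at most the 3 called genes with the largest change with each factor, and the 5 genes most correlated with the summed HSP70 copies. Genes and lists were chosen with earlier results of these data known. Replicate numbers were not treated as pairs. Alternatives were median-of-ratios scaling, library size alone, no filter, DESeq2 1.42.0, only the groups compared, a replicate block, the HSP70 copies summed, and each library left out in turn.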

Additional observations from a re-analysis of the deposited data

Results flagged for a closer look

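Each of the 10 genes had responses that differed between lines in edgeR's interaction tests, at an adjusted p under 0.05 for all 3 pairs of lines. Of all genes tested, 65.2% were called for mouse Dux minus human DUX4, 60% for mouse Dux minus luciferase and 55% for human DUX4 minus luciferase. Values are differences of log2 fold changes, and the 3 contrasts share libraries.

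For the mouse Dux response minus the human DUX4 response, the differences were 6.40 for Hspa1a, 5.94 for Hspa1b, 1.5 for Hsp90aa1, 1.02 for Dnajb1, 0.85 for Hsph1, 0.67 for Hspa8, 0.67 for Cryab, 0.26 for Hsf1, −0.41 for Hspb1 and −1.28 for Bag3. By library size alone the Hsf1 difference was 0.06 and was not called (adjusted p = 0.517).

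For the mouse Dux response minus the luciferase response, the differences were 6.03 for Hspa1a, 5.51 for Hspa1b, 2.66 for Hsph1, 1.90 for Hsp90aa1, 1.77 for Dnajb1, 1.07 for Cryab, 0.97 for Hspa8, 0.43 for Bag3, 0.39 for Hspb1 and −0.19 for Hsf1. By library size alone Hspb1 (0.13, adjusted p = 0.352) and Bag3 (0.17, adjusted p = 0.0638) were not called. The Hsf1 call was lost with median-of-ratios scaling (adjusted p = 0.0605), in DESeq2 (0.0728) and on leaving out any of 4 libraries (0.0596 to 0.0673).

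For the human DUX4 response minus the luciferase response, the differences were 1.81 for Hsph1, 1.71 for Bag3, 0.80 for Hspb1, 0.75 for Dnajb1, 0.40 for Hsp90aa1, 0.40 for Cryab, 0.29 for Hspa8, −0.37 for Hspa1a, −0.44 for Hspa1b and −0.45 for Hsf1. All 10 calls of this contrast were kept under each alternative tried, except that with the HSP70 copies summed the calls of Hspa1a and Hspa1b do not apply and the other 8 were kept.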

How the results depend on the processing

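Of 612 values of single genes under other settings, 590 kept their direction and side of the threshold, 8 lost the call, 2 gained it and 12 changed sign; of 720 values with a library left out, 698 kept both, 16 lost the call and 6 changed sign. Counts of called members and of all called genes stayed within 1.5 times their values. The values that changed sign belonged to genes near 0. Hspb1 in the mouse Dux response was −0.24 by library size alone, −0.01 with no filter and −0.0013 with a replicate block, and ran from −0.12 to 0.1 with a library left out. Hspa8 in the human DUX4 response was 0.0034 with median-of-ratios scaling and 0.0033 in DESeq2. In the uninduced mouse Dux against luciferase clones, Hspa8 and Bag3 were each 0.07 by library size alone. In the uninduced human DUX4 against luciferase clones, Hspa8 was −0.01 with median-of-ratios scaling and in DESeq2, −0.00078 with only the groups compared, and −0.01 to 0.02 with a library left out, and Hsp90aa1 gained a call by library size alone (adjusted p = 0.0436) and with only the groups compared (0.0394). In the uninduced mouse Dux against human DUX4 clones, Hsf1 was 0.01 and Hspa8 0.04 by library size alone. The cause was not tested. Scaling by library size alone also moved the median of all genes by −0.19 in the mouse Dux minus human DUX4 contrast, where 38.8% of calls were then higher against 50.4%, and by −0.25 in the mouse Dux minus luciferase contrast (32.2% against 50.7%). Without the first induced mouse Dux library, a check chosen after seeing the data, the HSP90 family list had 1 called gene in place of 0. Same-numbered libraries did not deviate together in every pair (correlations 0.0802 to 0.219 in the mouse Dux line, −0.0306 to 0.0199 in the human DUX4 line and 0.0148 to 0.0308 in the luciferase line). In the mouse Dux line the value of 0.219 was that of the libraries numbered 1, and libraries of different number had −0.165 to 0.0935. With the replicate block 9351 genes were called in the mouse Dux response, against 9371 without it, and no count of called members changed. The block was shared by all lines, so it cannot fully take up a pairing particular to the mouse Dux line.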
